A study of Mus musculus with 70 samples.

Results

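Colonic mCherry cells expressing a constitutively active MEK1 (caMEK1, 2 libraries) were compared with colonic mCherry cells expressing a constitutively active MKK6 (caMKK6, 3 libraries). These 5 libraries were selected by their labels from 70 in the series, 23 of them from colon. The mice were chimeras of the C57BL/6 background, labelled male, whose tissues hold cells of both colours, and the labels call the mCherry cells primary senescent cells and the GFP cells their surroundings. Doxycycline in the drinking water induced the kinase, and colon was taken on day 7. The water, sweetened with sucrose, was dosed at 0.2 mg/mL doxycycline for caMEK1, whereas caMKK6 received 2 mg/mL, so the kinase and the dose changed together and cannot be told apart. Control mice, which carried the colours without an active kinase, also drank 2 mg/mL. Epithelium was released from the whole colon without the caecum, digested with trypsin, and sorted by colour with dead cells gated out. The age of the mice and the promoter behind each transgene are not given in the sources used here. Each library came from a different animal.

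MEK1 phosphorylates the kinases ERK1 and ERK2, which carry growth factor signals to the nucleus, and a permanently active form can drive cells into oncogene-induced senescence. MKK6 phosphorylates p38, a kinase family that answers stress and inflammation and can drive stress-induced senescence. ERK raises the transcription of its own brakes, the DUSP phosphatases and the Sprouty proteins, so that the transcripts of these genes are widely read as a measure of ERK activity. In the colon, stem cells at the crypt base give rise to absorptive colonocytes and to secretory cells, of which mucus-making goblet cells are the most common.

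The 5 libraries held 7387264 to 14409519 reads in genes, within the 6358587 to 16647561 of all colon libraries, and 10085 to 10404 genes reached 1 FPKM (fragments per kilobase, scaled to sequencing depth). Values are FPKM as deposited, given in the order caMEK1 replicates 1 and 2, then caMKK6 replicates 1, 2 and 3. A log2 fold change is caMEK1 minus caMKK6 on the log2(FPKM + 1) scale, which understates the difference of weakly expressed genes, and ± is its standard error from limma. Libraries correlated across genes at r = 0.9777 within caMEK1, 0.9657 to 0.9824 within caMKK6 and 0.8967 to 0.9293 between the kinases. The epithelial marker Epcam stood at 800 and 861 FPKM against 757, 700 and 693, while 14 lymphocyte markers summed to at most 0.34 FPKM in any of the 5 libraries.

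The label of sex did not match the reads in every library. The 4 Y-linked genes read (Kdm5d, Uty, Ddx3y and Eif2s3y) lay between 0 and 0.61 FPKM in caMEK1 replicate 1 and were all listed at 0 in replicate 2. In caMKK6 they lay between 0.959 and 3.81 FPKM in replicate 1, 0.0306 and 0.112 in replicate 2 and 0.272 and 0.72 in replicate 3. The GFP cells of the same animals ranged from 0 to 0.0484 FPKM in caMEK1 and from 2.09 to 14.5 in caMKK6. In mCherry cells the kinases overlapped, Ddx3y being at 0.61 FPKM in caMEK1 replicate 1 and 0.0892 in caMKK6 replicate 2, whereas in GFP cells they did not. Without doxycycline, caMEK1 GFP replicate 2 lay between 0 and 0.0631 FPKM and replicates 1 and 3 between 2.84 and 7.95. The part of these reads in the results was not tested, and in the GFP cells on doxycycline it cannot be told apart from the kinase.

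Each transgene was read in the libraries labelled for it. The frog MEK1 transcript was at 288 and 235 FPKM in caMEK1 mCherry cells and was listed at 0 in all caMKK6 and control mCherry libraries. The human MKK6 transcript was at 2650, 1610 and 1210 FPKM in caMKK6 and was listed at 0 in both others. The mCherry transcript stood at 285 and 217 FPKM in caMEK1 and 2350, 1460 and 1020 in caMKK6, with no overlap, and at 14400 and 11900 in control mCherry cells. The caMEK1 cells thus held the lowest level of the reporter. EGFP, the reporter of the other colour, was at 13.1 and 17.8 FPKM against 179, 3.36 and 15.1, and caMKK6 replicate 1 stood apart with the highest value. The GFP cells of caMKK6 replicate 1 likewise held more MKK6 transgene, at 116 FPKM against 8.5 and 10.6 in replicates 2 and 3.

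**Figure D1:**
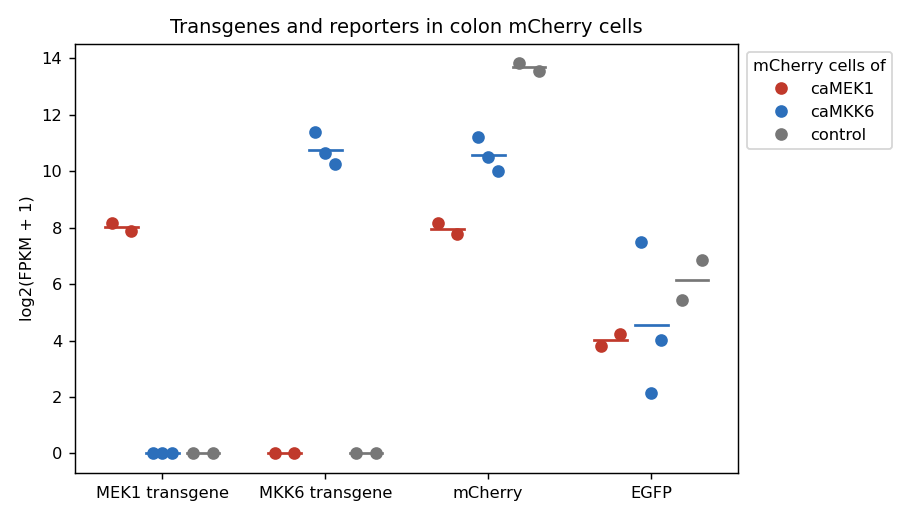
Transgene and reporter levels, log2(FPKM + 1) on the vertical axis, in mCherry cells of caMEK1, caMKK6 and control mice, 1 point per library and a bar at each group mean. The MEK1 transgene is above 0 in the 2 caMEK1 libraries and the MKK6 transgene in the 3 caMKK6 libraries.

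Between the kinases 2389 of 11542 genes tested were called at an adjusted p below 0.05 (20.7%), 988 higher in caMEK1 (8.56%) and 1401 lower (12.1%). The difference exceeded 2-fold for 506 of the higher and 531 of the lower genes and 8-fold for 31 and 28. The median over all genes tested was −0.08. Groups did not overlap for 51.9% of all genes tested. The number of calls moved with the library left out: it was 964 without caMEK1 replicate 2, 1574 without caMEK1 replicate 1 and 1504 without caMKK6 replicate 3, and 712 genes (304 higher, 408 lower) were called whichever of the 5 libraries was absent. Unless another value is given, a gene described below as called belonged to these 712. Counts of list members called are to be read beside these shares of all genes: 20.7% called, 8.56% higher and 12.1% lower. The lists and their members were chosen with earlier results of these data known, so their shares are descriptions and not tests.

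The 12 genes with the largest excess in caMEK1 cells came first. Pnliprp2, a pancreatic lipase-related protein (chromosome 19, 58759719 to 58777534, plus strand, GRCm38), was at 109 and 129 FPKM against 1.4, 3.72 and 0.593. Its log2 fold change was 5.51 ± 0.43 (adjusted p = 1.2e-07). Il5ra, a subunit of the interleukin-5 receptor, followed at 26.9 and 86.5 FPKM against 0.4, 0.0779 and 0.372 (5.28 ± 0.45). Il5ra was below 1 FPKM in every caMKK6 library, and Pnliprp2 in 1 of 3. The serine protease Prss22 stood at 59.4 and 93.3 FPKM against 5.49, 1.61 and 1.26 (4.49 ± 0.34). Sprr1a and Sprr2h, small proline-rich proteins of the cornified envelope of skin, reached 219 and 577 FPKM against 18.8, 24.1 and 9.25, and 69.5 and 105 against 3.63, 3.58 and 4.96. The GPI-anchored surface proteins Ly6m and Ly6g were at 535 and 887 FPKM against 32, 56.6 and 19.4, and at 588 and 1010 against 46.2, 28 and 38.9 (log2 fold change 4.35 for each), although reads of this family may be split among near-identical copies. Creb3l3, a membrane-bound transcription factor of lipid metabolism, was at 23.4 and 44.6 FPKM against 1.25, 0.985 and 0.441. Adenosine deaminase, Ada, was at 48.3 and 96.3 FPKM against 4.61, 2.13 and 2.39. The remaining leaders were the BMP antagonist Nbl1 (4.10), the membrane protein Emp1 (4.10) and Clca4a (4.35), whose call was lost without caMEK1 replicate 2 (3.54, adjusted p = 0.092). Control mCherry cells held Prss22 and Sprr2h at 0 in both libraries, and Pnliprp2 at 0.674 and 0.835 FPKM, within the range of caMKK6.

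The stretches before the start sites of 4 of these genes are printed as the 4 with the largest fold changes that carry the AP-1 element TGANTCA, the sequence bound by FOS and JUN proteins, which act downstream of both kinase pathways. They were read from RefSeq on GRCm38.p6, 250 bases upstream of the annotated start, 5′ to 3′ on the strand of the gene, with the elements in capitals. The window of Il5ra lies at chr6:106749038-106749287 (minus strand) and holds 1 element. That of Sprr1a, at chr3:92485882-92486131 (minus strand), holds 2. The windows of Creb3l3, at chr10:81098873-81099122 (minus strand), and of Sprr2h, at chr3:92385435-92385684 (plus strand), hold 1 each. Of the 12 genes, 9 had a RefSeq window, and 5 of these held the element in at least 1 window, Emp1 being the fifth. Among the 12 genes with the largest deficit it was 2 of 7.
Il5ra: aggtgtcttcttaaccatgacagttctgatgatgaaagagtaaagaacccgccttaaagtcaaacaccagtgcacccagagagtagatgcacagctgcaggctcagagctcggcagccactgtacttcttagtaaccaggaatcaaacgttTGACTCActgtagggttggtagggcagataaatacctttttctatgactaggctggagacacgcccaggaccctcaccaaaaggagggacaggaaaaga
Sprr1a: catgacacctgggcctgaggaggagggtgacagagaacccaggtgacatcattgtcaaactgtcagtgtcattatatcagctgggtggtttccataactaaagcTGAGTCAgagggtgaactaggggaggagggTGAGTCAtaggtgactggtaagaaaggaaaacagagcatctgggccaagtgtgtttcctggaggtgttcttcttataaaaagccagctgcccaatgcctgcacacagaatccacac
Creb3l3: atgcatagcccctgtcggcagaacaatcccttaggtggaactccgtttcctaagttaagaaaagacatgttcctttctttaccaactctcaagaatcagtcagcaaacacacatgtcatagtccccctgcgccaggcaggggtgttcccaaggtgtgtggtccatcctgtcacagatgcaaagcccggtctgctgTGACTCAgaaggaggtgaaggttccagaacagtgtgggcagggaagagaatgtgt
Sprr2h: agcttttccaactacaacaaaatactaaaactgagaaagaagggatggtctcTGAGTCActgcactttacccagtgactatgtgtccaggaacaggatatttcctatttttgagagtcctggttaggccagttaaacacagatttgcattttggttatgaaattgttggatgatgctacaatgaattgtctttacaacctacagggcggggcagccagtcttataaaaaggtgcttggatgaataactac
On either strand TGANTCA occurred in 6.75% of all 32851 RefSeq stretches of 250 bases before a start, and in 5.65% of the 9251 tested genes matched to one. It was found in 9.68% of genes called higher in caMEK1 and 5.69% of genes called lower. Among called genes that did not overlap and differed by more than 4-fold, predicted genes passed over, the share was 15.1% (14 of 93) on the higher side and 15.3% (11 of 72) on the lower side, so the element was as common before genes high in caMKK6. The TATA element TATAAA was also more frequent in these sets, at 20.4% and 31.9% against 8.41% of tested genes. CCGGAAGT, a strong ETS site, occurred in 0 of either set and in 6.84% of tested genes. A match is only a description of the letters.

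**Figure D2:**
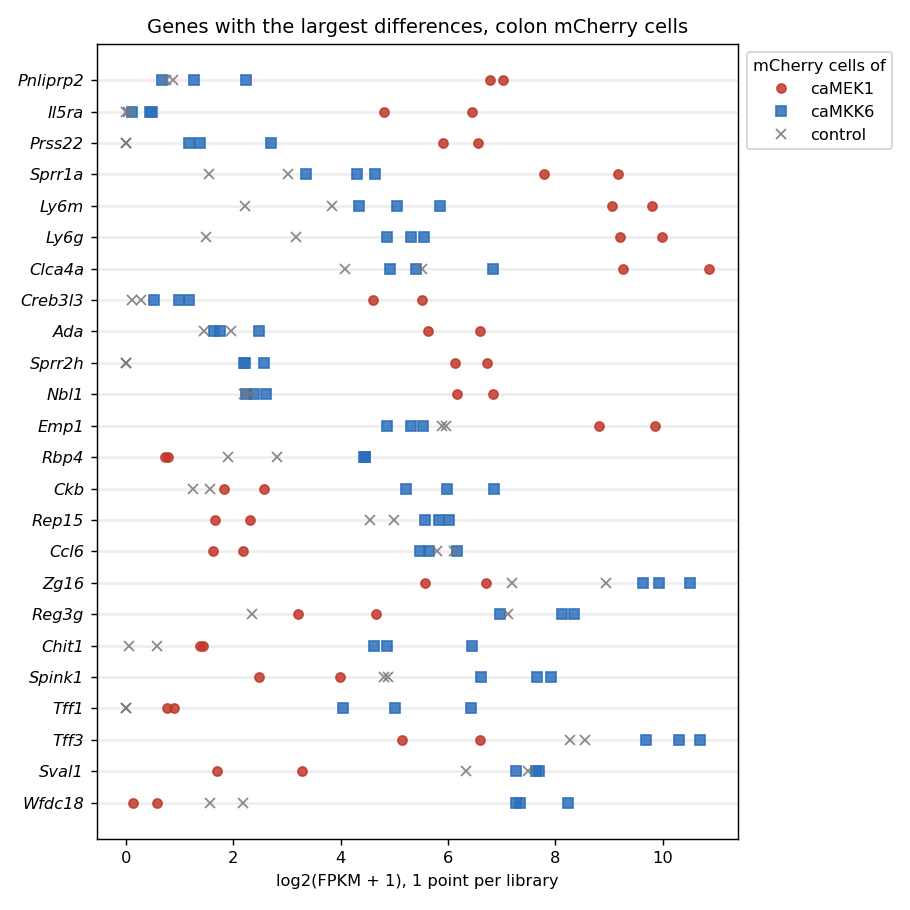
The 24 genes with the largest differences, log2(FPKM + 1) on the horizontal axis, 1 symbol per library of caMEK1, caMKK6 and control mCherry cells. The 2 caMEK1 points lie outside the 3 caMKK6 points in every row because only genes without overlap were eligible. Control cells lie nearer to caMKK6 in most of the upper rows.

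In the other direction, Wfdc18, a small secreted protein with a protease-inhibitor domain (chromosome 11, 83709015 to 83711348, plus strand), was at 0.5 and 0.102 FPKM against 300, 161 and 153. This was the largest difference in either direction (−7.25 ± 0.56, adjusted p = 1.1e-07), and control mCherry cells held 3.54 and 1.96 FPKM. Sval1 followed at 8.72 and 2.22 FPKM against 207, 198 and 153 (−5.05 ± 0.48). The trefoil peptides Tff3 and Tff1, which protect mucosal surfaces, were at 96.4 and 34.2 FPKM against 1270, 1650 and 830 (−4.36 ± 0.49) and at 0.867 and 0.705 against 84.8, 15.6 and 31.2 (−4.33 ± 0.52). Tff1, a stomach product, was listed at 0 in both control libraries. The trypsin inhibitor Spink1 stood at 14.9 and 4.59 FPKM against 202, 240 and 96.7. Chitotriosidase, Chit1, was at 1.61 and 1.71 FPKM against 86.1, 28.2 and 23.7. The retinol carrier Rbp4 was at 0.726 and 0.646 FPKM against 20.8, 20.9 and 20.7. For each of these genes both caMEK1 values lay below all caMKK6 values, as the rule of selection required. The others were the lectin Zg16 (−3.89), the chemokine Ccl6 (−3.87), Rep15 (−3.82) and the creatine kinase Ckb (−3.81). The antimicrobial lectin Reg3g (−3.89 ± 1.33, adjusted p = 0.044) was called with all libraries but lost its call when any of the 5 was left out (adjusted p 0.051 to 0.28).

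ERK output genes were higher in caMEK1 cells. Of 18 tested, 10 were called higher and 0 lower, 55.6% against 8.56% of all genes called higher, with a median log2 fold change of 1.22 against −0.08 over all genes. Dusp5, a nuclear phosphatase of ERK, was at 128 and 207 FPKM against 18.2, 13.5 and 9.5 (3.52 ± 0.39, adjusted p = 7.1e-06). Epha2, a receptor tyrosine kinase induced by ERK, was at 109 and 200 FPKM against 19.8, 11 and 14 (3.26 ± 0.51). Spry4, a Sprouty inhibitor of the pathway, was at 12.7 and 17.4 FPKM against 1.34, 0.781 and 1.26 (2.91 ± 0.27). These 3 genes did not overlap between the kinases, and their caMKK6 levels lay near those of control mCherry cells (Dusp5 25.3 and 12.5, Epha2 13.4 and 12.5, Spry4 1.64 and 1.3). The ETS factor Etv4 (2.08 ± 0.43) and Spred3 (1.66 ± 0.21) completed the 5 calls that held whichever library was absent. The other 5 rested on caMEK1 replicate 2: without it Dusp6, the cytoplasmic ERK phosphatase, was at 1.25 (adjusted p = 0.096) in place of 1.61, and Egr1 was at 1.58 (0.067) in place of 1.70. Fosl1 lost its call without caMEK1 replicate 2 (0.16) and without caMKK6 replicate 2 (0.067). Control cells did not always lie near caMKK6: Egr1 stood at 136 and 161 FPKM in caMEK1, 43.3, 47.6 and 43.8 in caMKK6 and 418 and 184 in control mCherry cells.

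Immediate early genes, the first wave of transcription after a growth or stress signal, gave 3 of 18 higher and 0 lower (16.7% against 8.56% of all genes called higher), with a median of 0.77, and 1 without caMEK1 replicate 2. Egr2 was the 1 call that held throughout, at 10.2 and 8.46 FPKM against 1.34, 0.983 and 1.41, with control cells at 19.4 and 7.27. Calls made up 45.5% of the list of EGF family genes and receptors, against 20.7% of all genes. Of the EGF family and its receptors, 4 of 11 were called higher and 1 lower, and all 5 calls were lost without caMEK1 replicate 2. In that set Egfr stood at 12.7 and 27.4 FPKM against 7.15, 7.37 and 6.26, and its log2 fold change went from 1.32 to 0.79 (adjusted p = 0.063) when that library was left out. The EGFR inhibitor Errfi1 (1.76) and the ligand Ereg (1.98) had adjusted p of 0.16 and 0.074 in the same fit.

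The kinases themselves also differed at the level of transcript. Of 16 genes for MAP kinases and their activators, 7 were called higher in caMEK1 and 0 lower (43.8%, median 0.51). Of all genes 8.56% were called higher. Mapk11, which encodes p38 beta, was at 4.69 and 10.6 FPKM against 0.315, 0.546 and 0.669 (2.43 ± 0.23), with control cells at 0 and 0.0802. Map2k3, the second activator of p38 beside MKK6, was at 55.3 and 81.8 FPKM against 29.5, 22.1 and 21 (1.45 ± 0.21). Mapk3, which encodes ERK1, was at 263 and 244 FPKM against 162, 166 and 140 (0.70 ± 0.15). These 3 calls held in every fit with a library left out, and the list gave 3 calls without caMEK1 replicate 2. The mouse's own Map2k1 (0.37, adjusted p = 0.39) and Map2k6 (0.74, adjusted p = 0.06) were not called, although Map2k6 passed with a pseudocount of 0.1 (0.037), with scaling to a common median (0.024) and with quantile normalization (0.028). Among p38 effectors and stress genes 4 of 17 were higher and 3 lower (41.2%, median 0.22), and 3 remained without caMEK1 replicate 2. Rps6ka4, which encodes MSK2, a kinase under both ERK and p38, was at 27.2 and 34 FPKM against 11.2, 8.11 and 6.55 (1.74 ± 0.22). Gadd45a, a stress sensor, was 1.42 ± 0.27 higher, and Dusp16, a phosphatase of JNK and p38, was at 5.77 and 4.48 FPKM against 11.4, 18.3 and 16.8 (−1.42 ± 0.23). The p38 effector list thus held calls in both directions, 41.2% of its genes against 20.7% of all genes.

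**Figure D3:**
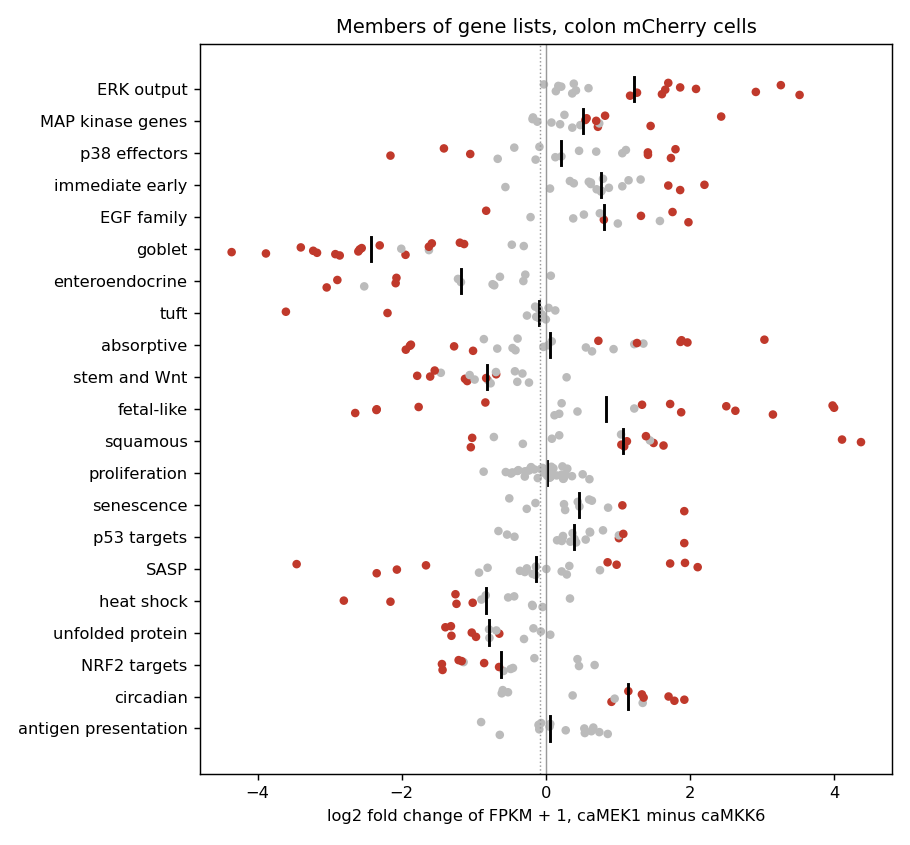
Log2 fold change (horizontal axis) of the tested members of gene lists, 1 point per gene, red where called, with a bar at each list's median and a dotted line at the median of all genes tested, −0.08. ERK output lies to the right and goblet genes to the left.

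Goblet cell genes were lower in caMEK1 cells. Of 20 tested, 16 were called lower and 0 higher (80%, against 12.1% of all genes called lower), with a median log2 fold change of −2.43, and 12 of them were called whichever library was absent. Their summed level was 1047 to 1261 FPKM in caMEK1 and 8450 to 10128 in caMKK6. In sorted bulk cells, fewer goblet cells and less goblet RNA per cell cannot be told apart. Muc2, the gel-forming mucin of colonic mucus, was at 185 and 192 FPKM against 1240, 1470 and 1440 (−2.86 ± 0.59, adjusted p = 0.0023). Fcgbp, a mucus-binding protein, was at 90.2 and 83.3 FPKM against 638, 809 and 567 (−2.92 ± 0.49). Agr2, the disulfide isomerase needed for mucin folding, was at 220 and 227 FPKM against 1710, 1920 and 2540 (−3.18 ± 0.44). All 3 were several-fold apart with no overlap. The transcription factors of the lineage were lower as well: Atoh1, which commits cells to the secretory fate, was at 3.05 and 2.22 FPKM against 14.7, 26.5 and 22.5 (−2.58 ± 0.42), and Spdef, which matures goblet cells, at 6.61 and 8.28 against 48.8, 51 and 50.4 (−2.60 ± 0.55). Reg4 (−3.40), Spink4 (−3.23), Klk1 (−2.56) and Foxa3 (−2.31) were lower too. Clca1 (−1.95 ± 0.62, adjusted p = 0.032) lost its call in 4 of the 5 fits with a library left out, with adjusted p of 0.063 and 0.25 without caMEK1 replicates 1 and 2 and 0.069 and 0.096 without caMKK6 replicates 1 and 2. Control mCherry cells, at 612 and 2390 FPKM of Muc2 and 210 and 615 of Fcgbp, lay above caMEK1 for both genes and differed between themselves by more than the caMKK6 libraries did.

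The other secretory lineages were read next, beside the 12.1% of all genes called lower. Enteroendocrine genes gave 4 of 13 called lower and 0 higher (30.8%, median −1.18), and 0 calls remained without caMEK1 replicate 2 and 2 without caMKK6 replicate 1. Chromogranin A, Chga, was at 2.96 and 1.89 FPKM against 31.4, 38.1 and 16.1 (−3.04 ± 0.74, adjusted p = 0.0073, and 0.083 without caMEK1 replicate 2). The hormone Pyy was at 8.89 and 4.72 FPKM against 36, 31.2 and 26.3, and its adjusted p was 0.21 without that library and 0.054 without caMKK6 replicate 1. Of the tuft cell list 2 of 11 were lower (18.2%) and the median was −0.10. With a pseudocount of 0.1 the median was −0.46, and by voom −0.83, against −0.10 over all genes in each. The summed level of the list, Sh2d6 included, was 2.7 to 3.96 FPKM in caMEK1 and 22.79 to 50.75 in caMKK6. Sh2d6 was the call that held, at 1.15 and 0.367 FPKM against 28, 17 and 16.5 (−3.61 ± 0.46), while the second, Avil, had adjusted p of 0.067 and 0.076 without caMEK1 replicates 1 and 2.

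Absorptive genes split. Of 24 tested, 6 were higher and 5 lower (45.8%), with a median of 0.06, and 5 calls remained without caMEK1 replicate 2. Cdhr2, a cadherin of the brush border, was at 312 and 378 FPKM against 91.1, 130 and 68.8 (1.87 ± 0.38). The brush border protease Mep1a was at 103 and 61.4 FPKM against 24.6, 25.2 and 14.6 (1.88 ± 0.37). Krt20, a keratin of mature surface cells, was at 895 and 1420 FPKM against 128, 200 and 100 (3.03 ± 0.66), but its adjusted p went from 0.0034 to 0.062 without caMEK1 replicate 2. Other members were lower. The water channel Aqp4 was at 32.5 and 14.3 FPKM against 104, 79.7 and 76.5 (−1.94 ± 0.27), Scnn1g, a subunit of the sodium channel ENaC, at 1.59 and 0.332 against 4.12, 9.65 and 4.94 (−1.89 ± 0.33). Guca2b, the hormone uroguanylin, was at 13.5 and 10.7 FPKM against 42.1, 48.3 and 49.7 (−1.87 ± 0.37). Calls of this list, 45.8% of its genes against 20.7% of all genes, therefore stood on both sides in the same libraries.

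Stem cell and Wnt genes gave 7 of 18 called lower and 0 higher (38.9% against 12.1% of all genes called lower, median −0.82). The count was 2 without caMEK1 replicate 1, 1 without caMEK1 replicate 2 and 4 without caMKK6 replicate 3, and no gene of the list was called in every such fit. Cd44, a surface receptor of crypt base cells, was at 16.1 and 17.8 FPKM against 46.5, 71.9 and 67 (−1.79 ± 0.49, adjusted p = 0.015, and 0.086 and 0.084 without either caMEK1 library). Ephb3, which keeps cells in position in the crypt, was at 2.59 and 4.27 FPKM against 11.4, 14.2 and 11.3 (−1.61 ± 0.35, adjusted p = 0.0036, and 0.059 without caMEK1 replicate 1). Proliferation genes showed no call: 0 of 35 by limma, with a median of 0.02, and 2 calls without caMKK6 replicate 2. Mki67, the marker of cycling cells, was at 31.8 and 43.6 FPKM against 30.2, 11.9 and 38.7 (0.60 ± 0.55, adjusted p = 0.48), so the 2 groups overlapped.

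Fetal-like and regenerative epithelial genes, which the injured gut expresses again, divided into opposed sets, beside the 20.7% of all genes called. Of 18 tested, 8 were higher and 5 lower (72.2%, median 0.83), and 9 calls held throughout. Psca, a GPI-anchored surface protein (chromosome 15, 74714839 to 74717069, plus strand), was at 199 and 211 FPKM against 13.4, 12.8 and 10.1 (3.98 ± 0.30, adjusted p = 1.1e-07), and at 0.758 and 0.179 in control cells. Mesothelin, Msln, was at 38.1 and 111 FPKM against 6.99, 0.545 and 4.74 (4.00 ± 0.59) and was listed at 0 in both control libraries. Ly6c1 was at 62.5 and 60.7 FPKM against 8.21, 3.1 and 8.29 (3.15 ± 0.32), with the limit on this family given above. These 3 genes were ordered caMEK1, caMKK6, control with no overlap between the groups. The matrix protein Ecm1 (2.50 ± 0.26) stood in the same order. On the lower side Clu, clusterin, the marker of the revival stem cell, was at 7.45 and 13.5 FPKM against 131, 42.1 and 57.1 (−2.65 ± 0.56). The alarmin Il33 was at 0.296 and 0.215 FPKM against 11.3, 1.83 and 6.48 (−2.35 ± 0.43). Gja1 (−1.77) and Ccn2 (−0.84) were lower as well, the latter with an adjusted p of 0.061 by voom. For Clu and Il33 the highest value was in caMKK6 replicate 1, the library with the most EGFP and MKK6 transgene, and each call held without it.

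Squamous genes, normally those of stratified epithelium, gave 8 of 16 tested called higher and 2 lower (62.5%, median 1.07), and 3 calls held throughout, Sprr1a, Sprr2h and Krt80. The count was 3 without caMEK1 replicate 2 and 6 without caMKK6 replicate 2. A further 17 of the 33 members were too low to be tested, and 8 were listed at 0 in all 5 libraries. These 8 were Krt5, Sprr1b, Sprr2d, Sprr2e, Sprr2f, Sprr3, Trp63 and Krtdap. A gene needed 1 FPKM in only 2 colon libraries, so a member could enter through the 2 caMEK1 libraries alone. The 62.5% and the median describe the members that passed, not the whole list. With a filter at 5 FPKM 8 members were tested and 4 called, all higher, and voom called 6 higher and 0 lower. Shares called in this list and the next stand beside 20.7% of all genes called. Krt80, a keratin of differentiated layers, was at 1.45 and 4.09 FPKM against 0.223, 0.247 and 0.291 (1.49 ± 0.22). Krt7, a keratin of ductal epithelium, was at 115 and 265 FPKM against 68.6, 46.9 and 53.9, and its log2 fold change went from 1.63 to 1.04 (adjusted p = 0.18) without caMEK1 replicate 2. The Sprr and Krt80 values did not overlap between the kinases. Keratin and junction genes gave 7 of 17 higher and 2 lower (52.9%, median 0.66), with 4 calls without caMEK1 replicate 2. Krt18, a filament of simple epithelium, was at 1650 and 2560 FPKM against 957, 822 and 764 (1.29 ± 0.23), and at 272 and 252 in control cells. Krt23 was 2.75 ± 0.35 higher. The claudins Cldn2, a leaky pore of crypt junctions, at 26.3 and 16.2 FPKM against 83, 121 and 105 (−2.25 ± 0.37), and Cldn8, a sealing claudin of the distal colon (−2.09 ± 0.38), were lower.

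Among senescence genes of the cell cycle 2 of 12 were called higher (16.7%, median 0.45), and 1 without caMEK1 replicate 2 or without caMKK6 replicate 2. Cdkn1a, the CDK inhibitor p21, was at 135 and 210 FPKM against 57, 44 and 33.3, with control cells at 52 and 39.3. Its log2 fold change was 1.92 ± 0.41 (adjusted p = 0.0031), and 1.61 with an adjusted p of 0.068 without caMEK1 replicate 2. Cdkn2b, p15, at 46.1 and 43.9 FPKM against 28.9, 28.2 and 17.5, did not pass the test (0.86 ± 0.47, adjusted p = 0.21), though it did in a fit on these 2 groups alone (0.046). Cdkn2a was at most 0.776 FPKM in these libraries and was not tested. The lamin Lmnb1, whose loss marks senescence in culture, was at 19.6 and 24.9 FPKM against 25.5, 11 and 22 (0.25 ± 0.36, adjusted p = 0.68), with overlap. p53 targets gave 3 of 19 higher (15.8%, median 0.40), of which Perp, a desmosomal protein, held throughout at 185 and 193 FPKM against 101, 84.3 and 83.9 (1.07 ± 0.19). All calls in both lists were higher, and 8.56% of all genes were called higher.

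Secreted factors of the senescent phenotype differed gene by gene, with 5 of 22 higher and 4 lower (40.9%, median −0.14), and 4 calls without caMEK1 replicate 2. That share stood beside 20.7% of all genes called. The angiogenic factor Vegfa was at 34.7 and 104 FPKM against 11.2, 14.2 and 14.5 (2.11 ± 0.32). Tissue plasminogen activator, Plat, was at 8.63 and 11.4 FPKM against 2.66, 1.26 and 1.83 (1.93 ± 0.22), and at 0.0653 and 0.0866 in control cells. The matrix protease Mmp7 was lower, at 6.39 and 2.55 FPKM against 92.6, 26.8 and 67.6 (−3.46 ± 0.60). Gdf15, a stress hormone, was at 11.3 and 6.09 FPKM against 19.3, 37.4 and 32.4 (−1.66 ± 0.46, adjusted p = 0.015). That call was lost without caMEK1 replicate 2 (0.19), caMKK6 replicate 2 (0.05) and caMKK6 replicate 3 (0.051). Il6 was at or near 0 in all 5 libraries. Antimicrobial and defence genes gave 4 of 20 lower and 0 higher (20%, median −0.73), against the 12.1% of all genes called lower, and 2 without caMEK1 replicate 2 or caMKK6 replicate 3. The nitric oxide synthase Nos2 was at 0.851 and 0.698 FPKM against 20.1, 17 and 16.9 (−3.42 ± 0.25, adjusted p = 1e-07), and at 0.257 and 0.139 in control cells. Lactoferrin, Ltf, was at 0.0707 and 0.0359 FPKM against 1.99, 1.48 and 2.01. For Nos2 the caMKK6 libraries were the high ones and caMEK1 lay closer to control.

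Part of the genes for protein folding were lower in caMEK1 cells. Heat shock genes gave 5 of 13 lower and 0 higher (38.5%, median −0.84), and unfolded protein response genes 6 of 13 lower and 0 higher (46.2%, median −0.78), against 12.1% of all genes, with 2 calls in each list without caMEK1 replicate 2. The unfolded protein count was also 3 without caMEK1 replicate 1 and without caMKK6 replicate 3. Hspb8, a small heat shock protein, was at 0.0625 and 0.0636 FPKM against 15.2, 1.9 and 7.71 (−2.80 ± 0.41). The chaperone Hsp90aa1 was at 35.6 and 42 FPKM against 94.7, 79.8 and 105 (−1.24 ± 0.26). Hspb1, the small heat shock protein phosphorylated downstream of p38, was at 1.42 and 0.962 FPKM against 8.94, 8.19 and 9.04 (−2.16 ± 0.49), and its adjusted p went from 0.0042 to 0.06 without caMEK1 replicate 2. In the endoplasmic reticulum Hyou1 stood at 15.3 and 16.5 FPKM against 40.6, 39.4 and 51.2 (−1.40 ± 0.31) and calreticulin, Calr, at 159 and 165 against 420, 360 and 440 (−1.32 ± 0.27). Goblet genes, whose products are folded there, were lower in the same libraries, and their part in the folding genes was not tested. NRF2 targets, of the response to oxidants, gave 6 of 14 lower and 0 higher (42.9%, median −0.62), and 3 without caMEK1 replicate 2. Heme oxygenase, Hmox1, was at 1.74 and 1.49 FPKM against 8.75, 3.87 and 6.39 (−1.43 ± 0.30), and G6pdx, which supplies NADPH, at 39.3 and 36.7 against 101, 71.1 and 90.3 (−1.17 ± 0.17). Calls made up 45.5% of the integrated stress response list, against 20.7% of all genes. Integrated stress response genes went both ways, 2 of 11 higher and 3 lower, and no call held throughout. Their 5 calls became 2 and 1 without caMEK1 replicates 1 and 2, and 3 without caMKK6 replicate 1 or 3.

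Metabolic lists were mixed, beside the 20.7% of all genes called. Of sterol and fatty acid synthesis genes 2 of 20 were higher and 3 lower (25%, median −0.07), and the 3 lower calls held when caMEK1 replicate 2 was left out. The desaturase Scd1 was at 2.34 and 2.76 FPKM against 16.9, 9.67 and 11.6 (−1.92 ± 0.30), with control cells at 23.2 and 14. Acly, which makes cytosolic acetyl-CoA, was at 42 and 45.5 FPKM against 102, 117 and 113 (−1.32 ± 0.22), with control cells at 118 and 98.8. For both genes caMEK1 lay below caMKK6 and control alike. Glycolysis and hypoxia genes gave 3 of 13 higher (23.1% against 8.56% of all genes called higher), among them the prolyl hydroxylase Egln3 (1.39 ± 0.30) and the glucose transporter Slc2a1, at 164 and 281 FPKM against 72, 67.3 and 55.9 (1.72, and an adjusted p of 0.068 without caMEK1 replicate 2). The median of the glycolysis and hypoxia list was −0.17, below the −0.08 of all genes. Fatty acid oxidation genes gave 2 of 16 higher and 1 lower (18.8%, near the 20.7% of all genes), of which Angptl4, an inhibitor of lipoprotein lipase, held at 6.09 and 4.97 FPKM against 0.183, 1.68 and 0.658 (1.91 ± 0.35).

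Signalling lists added single genes, and their shares stand beside 20.7% of all genes called, 8.56% higher and 12.1% lower. Of TGF-beta and BMP genes and of the BCL2 family 38.5% each were called, and of gasdermin genes 60%. The median of the Notch list was −0.08, as over all genes. Notch genes gave 2 of 9 higher (22.2%, and 1 without caMEK1 replicate 2 or caMKK6 replicate 3), the ligand Jag2 being at 2.38 and 4 FPKM against 0.317, 0.133 and 0.354 (1.70 ± 0.22). TGF-beta and BMP genes gave 4 of 13 higher and 1 lower, or 2 calls without caMEK1 replicate 2 and 3 without caMKK6 replicate 3. The receptor Tgfbr2 was at 11.5 and 14.8 FPKM against 38.3, 34.4 and 36.8 (−1.42 ± 0.25), with control cells at 10.3 and 16.5, and the ligand Bmp8b at 32.1 and 59.3 against 10.3, 5.62 and 6 (2.47 ± 0.37), with control cells at 0.378 and 0.139. For Tgfbr2 it was caMKK6 that lay apart from control. In the BCL2 family 3 of 13 were higher and 2 lower, the 5 calls becoming 2 without caMEK1 replicate 2 and 3 without caMKK6 replicate 1, and Bcl2l1, which encodes the survival protein BCL-XL, held at 26.8 and 36 FPKM against 12.9, 11.7 and 10.5 (1.34 ± 0.17). Gasdermin genes, whose products form membrane pores, gave 3 of 5 higher and 1 without caMEK1 replicate 2, the weakly expressed Gsdme (0.84 ± 0.19). Gsdmc2, at 91.5 and 135 FPKM against 44.4, 3.85 and 12.9, had an adjusted p of 0.082 without caMEK1 replicate 2, and reads of its near-identical neighbours may be split. Interferon genes gave 1 of 18 higher (0 without caMEK1 replicate 2, 2 without caMKK6 replicate 1) and antigen presentation genes 0 of 15 (4 without caMKK6 replicate 1), both below the share of all genes. HOX genes, which record position along the gut, gave 3 of 23 lower (13%, near the 12.1% of all genes), with 0 calls without caMEK1 replicate 2 and 1 without caMKK6 replicate 1 or 3.

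Clock genes gave 7 of 13 higher and 0 lower (53.8% against 8.56% of all genes called higher, median 1.14). Tef, an output factor of the clock, was at 17.2 and 10.2 FPKM against 3.32, 2.89 and 2.21 (1.92 ± 0.32), and Per3, a repressor within it, at 5.63 and 4.65 against 1.2, 0.695 and 0.783 (1.70 ± 0.30). Cry2 was 1.33 ± 0.26 higher. Dbp was at 11.6 and 3.81 FPKM against 1.95, 0.775 and 1.2, and its log2 fold change went from 1.78 to 1.09 (adjusted p = 0.12) without caMEK1 replicate 1, where the list's count was 3. The hour at which each colon was taken is not given in the sources used here, and its part in the result was not tested. In the GFP cells of the same animals the list's median log2 fold change was 0.63.

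Markers of other cells the sort could hold were low. Among neutrophil genes Ly6g was called, but 4 of the 10 markers (Retnlg, Mmp8, Camp and Ngp) were listed at 0 in all 5 libraries, so Ly6g stood without the rest of its list. Macrophage markers summed to 22.8 to 32.1 FPKM in caMEK1 and 38.5 to 45 in caMKK6, with 1 of 4 tested called lower and 0 without either caMEK1 replicate 2 or caMKK6 replicate 1 or 3. Stromal markers summed to 1.02 to 2.05 FPKM against 3.46 to 5.01, with 1 of 5 tested lower and 0 in 4 of the 5 fits with a library left out. The sums were, for endothelial markers, 1 to 1.21 against 0.84 to 1.93, for neuronal and glial markers 0.36 to 0.41 against 0.7 to 1.99, and for red cell markers 0 to 0.22 against 0.07 to 2.47. The part of these cells in the differences was not tested. General epithelial markers gave 3 of 12 higher (25%, median 0.36), and without caMEK1 replicate 2 the 1 call was Krt18.

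Both colours of an animal drank the same water, so the difference between its mCherry and GFP cells was compared between the kinases next. By this measure 316 genes were called (2.74%), 124 with a higher mCherry-to-GFP difference in caMEK1 (1.07%) and 192 with a lower one (1.66%). The count ranged from 71 without caMEK1 GFP replicate 1 to 437 without caMKK6 GFP replicate 1, and was 75 without caMEK1 mCherry replicate 2, 198 without caMEK1 GFP replicate 2 and 180 without caMKK6 mCherry replicate 3. With the animal as a block it was 854 as a fixed term (7.4%) and 1685 as a random effect. The same mCherry libraries enter this measure and the one above, so it is no separate evidence of a difference between mCherry cells. Nor were the colours of an animal alike in every way. In caMKK6 the Y-linked genes lay between 0.0306 and 3.81 FPKM in mCherry cells and between 2.09 and 14.5 in GFP cells. In caMEK1 they were at most 0.61 FPKM in either colour. The part of this in the measure was not tested.

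Goblet genes gave 11 of 20 with a lower mCherry-to-GFP difference and 0 with a higher one, beside 1.66% of all genes with a lower one. The 11 became 17 with the animal as a block in either form, 4 without caMEK1 mCherry replicate 2 or caMEK1 GFP replicate 1, and 7 without caMKK6 mCherry replicate 2. Fcgbp stood in GFP cells at 1040 and 1030 FPKM in caMEK1 and 315, 284 and 286 in caMKK6, the reverse of the order in mCherry cells, and its difference of differences was −4.73. Tff3 stood in GFP cells at 673 and 482 FPKM against 469, 342 and 361, with a difference of differences of −4.92 (adjusted p = 0.00073). Clca1 in GFP cells was at 2000 and 2220 FPKM against 380, 201 and 181 (−5.08, adjusted p = 0.0036), and the antimicrobial ribonuclease Ang4 at 1070 and 1350 against 70.7, 8.51 and 8.07 (−8.04, adjusted p = 0.034). The Ang4 call was lost in 9 of the 10 fits with a library left out (adjusted p 0.052 to 0.15). Between mCherry cells alone Ang4 was not called (−2.01 ± 1.40, adjusted p = 0.34), though it was in a fit on the compared groups alone (0.0058). For these 4 genes the mCherry cells of both caMEK1 animals were below the GFP cells of the same animal. In caMKK6 they were above in 3 of 3 animals for Fcgbp, Tff3 and Ang4 and in 2 of 3 for Clca1. Between GFP cells alone, Clca1 (adjusted p = 0.067) and Ang4 (0.15) were not called. Nor was any other of the 20 goblet genes, Fcgbp and Tff3 included. The list's median log2 fold change between GFP cells was −0.08, so the list did not rise there as a whole. By voom the difference of differences of Wfdc18 was not called (adjusted p = 0.056). Wfdc18 (−5.74), Spink1 (−5.30, and an adjusted p of 0.073 without caMEK1 mCherry replicate 2) and Sh2d6 (−5.07) were the other genes with the lowest values.

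ERK output genes gave 4 of 18 with a higher mCherry-to-GFP difference in caMEK1 and 0 with a lower one, beside 1.07% of all genes with a higher one. The 4 became 10 with the animal as a block in either form, 2 without caMEK1 mCherry replicate 2 or caMEK1 GFP replicate 1, and 7 without caMKK6 GFP replicate 1. Dusp5 in GFP cells was at 27.3 and 38.7 FPKM in caMEK1 and 37.3, 36.5 and 17.3 in caMKK6, which overlapped, and its difference of differences was 3.35 (adjusted p = 0.0024). Etv4 in GFP cells was at 12.7 and 18 FPKM against 27.2, 38 and 38.1, so that caMKK6 mCherry cells, at 8.74, 2.15 and 3.99, lay below the GFP cells of their animals (3.20, adjusted p = 0.0068). Spry4 had a difference of differences of 2.69 (adjusted p = 0.00063). Crip1, a small LIM protein (3.51), Ada (3.00), Il5ra (2.97) and Creb3l3 (2.95) were the other genes with the highest values. The Creb3l3 call was lost with a pseudocount of 0.1 (limma, adjusted p = 0.071) and by voom (0.051). Without caMEK1 mCherry replicate 2 and without caMEK1 GFP replicate 1 the adjusted p was 0.055 and 0.064 for Etv4, 0.055 and 0.068 for Crip1 and 0.14 and 0.085 for Il5ra. In GFP cells Il5ra was at 1.27 and 10.3 FPKM in caMEK1 and at 0.0658, 0 and 0 in caMKK6, and voom on recovered reads gave it a difference of differences of 0.21 (adjusted p = 0.98). Clock genes, called 7 times between mCherry cells, gave 0 calls here, and 2 without caMKK6 GFP replicate 1.

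**Figure D4:**
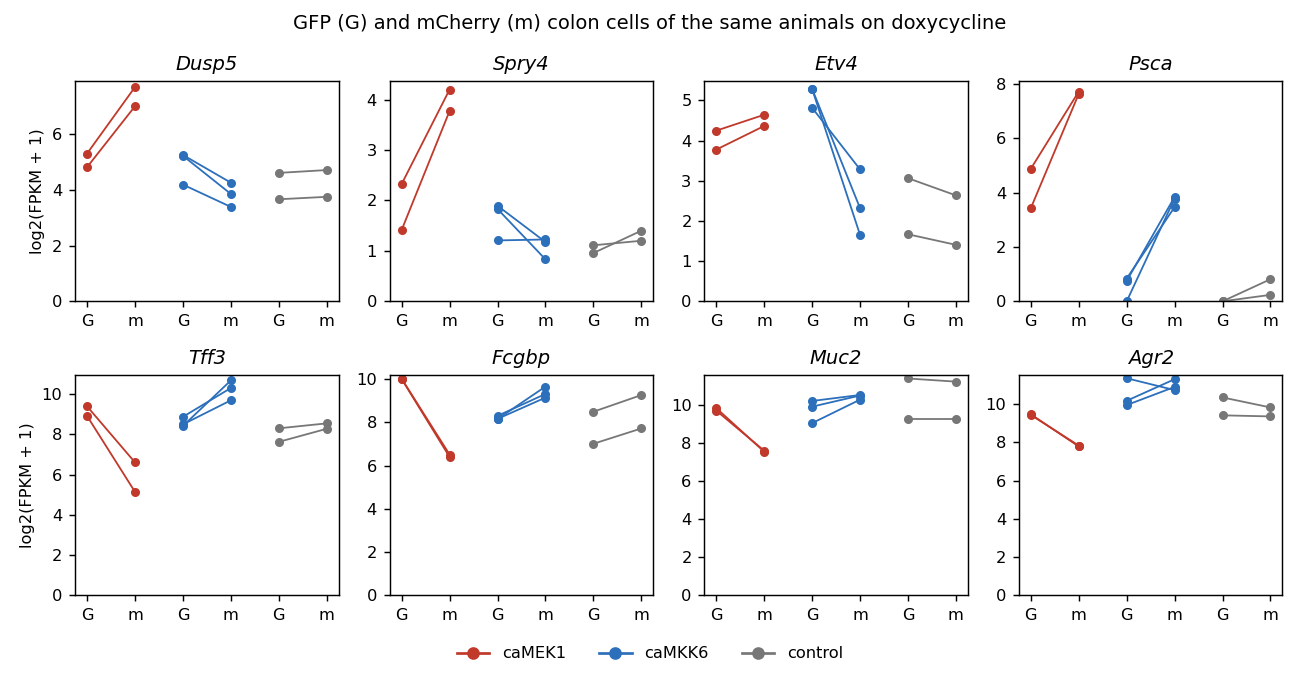
GFP (G) and mCherry (m) cells of the same animals on doxycycline, log2(FPKM + 1) on the vertical axis, for 8 genes, with 1 line per animal of caMEK1, caMKK6 and control mice. Lines for Dusp5 and Spry4 go up in the 2 caMEK1 animals, and lines for Tff3, Fcgbp, Muc2 and Agr2 go down in them.

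GFP cells of caMEK1 and caMKK6 mice, compared directly on doxycycline, differed in 9 genes (0.078%), 8 higher in caMEK1 (0.0693%) and 1 lower (0.00866%), with 765 genes at an unadjusted p below 0.05 and 4 calls by voom. Leaving out caMEK1 GFP replicate 1 raised the count to 19, and a fit on the GFP libraries compared alone called 0 higher and 4 lower. Psca was among them, at 9.8 and 28.5 FPKM against 0.684, 0 and 0.788 (3.63, adjusted p = 4.5e-06, and 0.13 in that fit). Its level in these GFP cells was 4.93% and 13.5% of that in the mCherry cells of the same animals. The MEK1 transgene itself was read in GFP cells at 4.27% and 12.2% of the mCherry level, and the mCherry reporter at 4.28% and 11.8%. Pnliprp2 (10.5% and 30.9%), Prss22 (8% and 10.5%), Sprr2h (4.09% and 17%), Ly6c1 (8.4% and 12.2%) and Prl2a1 (19.9% and 16.4%) were called in the same direction in both colours. The part of mCherry cells or their RNA among the GFP cells was not tested. Iigp1, an interferon-induced GTPase, and Spink5, a protease inhibitor of epithelia, were higher in GFP cells of caMEK1 (1.66 and 2.28) and stood in caMEK1 mCherry cells at 0.775 and 0.405 FPKM and at 0.382 and 0.0777 FPKM. The gene called lower was the Y-linked Eif2s3y, listed at 0 in both caMEK1 libraries (−3.73, adjusted p = 0.022), and its call was lost when any of the 5 libraries was left out (adjusted p 0.063 to 0.33).

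Untreated GFP cells of the lines, 3 libraries each and without doxycycline, differed in 0 of 11542 genes by limma and 0 by voom, with 141 genes at an unadjusted p below 0.05. That is fewer than the share of 0.05 looked for where no gene differs, so the test may be too cautious in these libraries. A fit on these groups alone called 3 genes, and the fit with no filter 2. The 0 calls therefore do not show the lines to be alike. Psca differed by −0.07 and Dusp5 by −0.35 on the log2 scale.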

How the data were processed

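Messenger RNA of sorted colon cells was sequenced in bulk. Per the submitters' processing notes, the authors used cutadapt 1.12, STAR 2 and mm10, and the counting tool and its annotation are not given in the sources used here. The authors deposited FPKM, which matched whole reads within 0.02 of a read against GENCODE exon lengths and so gave the depth of each library. No value column was left unused. The 11542 genes that reached 1 FPKM in 2 or more of 23 colon libraries were fitted on log2(FPKM + 1) with limma 3.58.1 (trend) in R 4.3.3, with 9 groups sharing 14 residual degrees of freedom (the 5 libraries alone leave 3). Calls needed a Benjamini-Hochberg adjusted p below 0.05 over all genes, two-sided. In simulated data 55 of 100 genes changed by 1 log2 unit, 90 of 100 changed by 2 and 6 of 11342 unchanged genes were called. Noise there was normal and independent between libraries, whereas real mCherry and GFP libraries shared animals. These counts are therefore no error rate of the real comparison.

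Named were the 12 largest differences each way among called, non-overlapping genes averaging at least 5 FPKM in the higher group (predicted genes and pseudogenes passed over), sentinel genes, transgenes, up to 6 called members of each of 41 lists, and 6 (difference of differences) or 3 (GFP) each way elsewhere. Genes named beyond the rule, such as Muc2, Atoh1 and Spdef, were chosen after their values were seen. The members and lists were chosen with earlier results of these data known. Replicate numbers did not pair the kinases (correlations of deviations 0.066 and −0.104), whereas mCherry and GFP cells shared an animal (0.396 to 0.536). Alternatives were a pseudocount of 0.1, no filter, a filter at 5 FPKM, scaling to a common median, quantile normalization, animal or replicate number as a block, the compared groups alone, voom on recovered reads, and each library left out.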

Additional observations from a re-analysis of the deposited data

Results flagged for a closer look

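The mCherry-to-GFP difference within an animal was compared between the kinases, and the 12 genes below were picked as the largest called values of that difference (limma, adjusted p below 0.05), so each passes its test by the way it was chosen. On the log2 scale, caMEK1 minus caMKK6, it was 3.51 for Crip1, 3.35 for Dusp5, 3.20 for Etv4, 3.00 for Ada, 2.97 for Il5ra and 2.95 for Creb3l3. It was −8.04 for Ang4, −5.74 for Wfdc18, −5.30 for Spink1, −5.08 for Clca1, −5.07 for Sh2d6 and −4.92 for Tff3. The Creb3l3 call was lost with a pseudocount of 0.1 (limma, adjusted p = 0.071) and with voom (0.051), and that of Wfdc18 with voom (0.056). The Ang4 call was lost in 9 of the 10 fits with a library left out, and Il5ra was at 0.21 (adjusted p = 0.98) with voom. Between mCherry cells alone Ang4 was not called (limma, −2.01, adjusted p = 0.34).

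The human MKK6 transcript was also read in untreated GFP libraries labelled caMEK1, in which it does not belong. It was at 0.131 FPKM in replicate 2 and 1.37 FPKM in replicate 3, and at 0 in the untreated control libraries. These libraries are a compared group only among untreated cells, but they share the estimate of the spread in every comparison.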

How the results depend on the processing

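Between mCherry cells the 2389 calls became 2475 with a pseudocount of 0.1, 2599 with no filter, 1948 with a filter at 5 FPKM, 2384 and 2373 after median scaling and quantile normalization, 2039 with these groups alone, 2078 with voom, and 964 to 2083 with a library left out. The share called higher, 41.4%, was 49.9% after median scaling. The cause of these shifts was not tested.

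Of the replicate blocks, the animal as a random effect gave 2452 calls and the replicate number 2512. For the difference of differences (316 calls) the animal block gave 1685 as a random effect and 854 as a fixed term, and the replicate number, which pairs nothing, 327. It gave 208 at 5 FPKM, 182 with the compared groups alone, 99 with voom, and 71 to 437 with a library left out. In GFP cells (9 calls) there were 28 with no filter, 14 with the animal block, 4 with the compared groups alone, 4 with voom and 7 to 19 with a library left out. In untreated cells (0 calls) there were 2 with no filter, 3 with those groups alone, and 0 with the animal or number block or with any library left out.

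Of 118 tested genes named, 117 kept their side of the threshold with a pseudocount of 0.1 and after each scaling, 116 with no filter, 110 of 114 with voom, and 98 without caMEK1 replicate 2. Reg3g was lost under the number block (adjusted p = 0.061). Lmnb1, not called, changed sign without caMKK6 replicate 2 (−0.096) and was at 0.475 without replicate 1. With the compared groups alone the calls became 9 of 18 immediate early, 11 of 18 stem cell, 8 of 13 enteroendocrine and 9 of 20 defence genes, the last 2 lists having 1 each with voom. The number of animals, 2 and 3, limits the precision of every value.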
